A study of Mus musculus with 6 samples.

Results

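The genes described here encode the conjugating enzymes of the mouse large intestine: the UDP-glucuronosyltransferases (UGT), the sulfotransferases (SULT), the cytosolic glutathione S-transferases (GST) and the microsomal glutathione S-transferases (MGST). They were taken by symbol, as every gene named Ugt, Sult, Gst of the alpha, mu, pi, theta, omega or zeta class, or Mgst, followed by a number and without a pseudogene suffix. This gave 68 of the 35434 genes in the table, of which 22 were UGT, 21 SULT and 25 GST or MGST genes. Mice with inflammatory bowel disease had been given regulatory T cells (Tregs), named Ctrl-Tregs or Lenv-Tregs in the labels, the latter treated with lenvatinib, an inhibitor of several receptor tyrosine kinases. RNA of large intestine samples was sequenced in 6 libraries, 3 labelled int 2 and 3 labelled int 3. Which of these numbers is the control transfer is not in the labels, and neither are strain, age, sex and the way the disease was induced. Every difference is int 3 minus int 2, whatever transfer each received. Nothing states that the 3 libraries of a group are 3 animals, and the p-values cover only the spread from library to library, which may be technical.

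Conjugating enzymes attach a polar group to a lipophilic compound, such as a drug, a plant or bacterial metabolite, a steroid or bilirubin, and the product can then be exported and excreted. UGT enzymes sit in the endoplasmic reticulum and use UDP-glucuronate, SULT enzymes of the cytosol use the sulfate donor PAPS, and GST enzymes use glutathione, an abundant cellular thiol. In the intestine these enzymes are found mainly in epithelial cells, where they act on what is absorbed from the lumen.

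The libraries held 34021820 to 35060599 fragments each, as worked out from the steps of the FPKM values. The 3 int 2 libraries lay close together and the 3 int 3 libraries did not. The log2 difference between any pair of int 2 libraries had an SD of 0.110 to 0.115 over all tested genes, against 0.302 between int 3-1 and int 3-2, 0.271 between int 3-1 and int 3-3 and 0.513 between int 3-2 and int 3-3. Even in int 2 the spread exceeded that of drawing fragments at random, for which chi-square divided by its degrees of freedom is 1: its median over genes was 1.74 in int 2 and 11.6 in int 3, and its mean was 2.90 and 85. The tissue label was met by the intestinal epithelial genes, since Epcam, an epithelial adhesion gene, stood at 685, 700.0 and 681 FPKM (fragments scaled by gene length and by the fragments of the library) in int 2 and at 638, 595 and 684 in int 3. The distal colon marker Hoxb13, a homeobox gene, was at 285 to 288 FPKM in int 2, while int 3-1 had 146, int 3-2 had 16.4 and int 3-3 had 267.

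In int 3 the large intestine carried fewer transcripts of several UGT, SULT and GST genes than in int 2. Of the 31 conjugating enzyme genes that could be tested 7 fell, 1 rose and 23 did not pass the test. The genes that fell were Ugt1a7c, Ugt2b34, Ugt2b35, Sult1a1, Sult2b1, Gstm3 and Gstt1, and the gene that rose was Gsta1. A gene was tested when it reached 1 FPKM in at least 3 of the 6 libraries. It is said to have risen or fallen when its difference on the scale of log2(FPKM + 1) had an adjusted p under 0.05 in limma, with Benjamini-Hochberg adjustment over all 12525 tested genes. Among all tested genes 6.7% fell and 8.64% rose (15.3% in either direction). The median log2 change of the 31 genes was -0.19, beside 0.03 over all tested genes, and 20 of the 31 changes were below 0. The int 3 values lay wholly below the int 2 values for 16 of the 31 genes and wholly above for 3, beside 17.9% and 22.4% of all tested genes. These counts treat each library as a sample. The counts depended on which libraries entered, and so did those of all genes. With int 2-1, int 2-2, int 2-3 and int 3-1 removed separately, 3 genes fell and 0 rose each time, beside 2.04%, 1.92%, 2.01% and 2.16% of all tested genes that fell and 3.03%, 2.99%, 3.07% and 2.97% that rose. Without int 3-2 the counts were 9 and 4, beside 9.59% and 11.4%. Without int 3-3 they were 16 and 4, beside 14.3% and 24.9%. For genes that did not pass, the adjusted p without 1 library is given below only where it was under 0.05. Their fits without another library, where not given, did not pass.

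**Figure D1:**
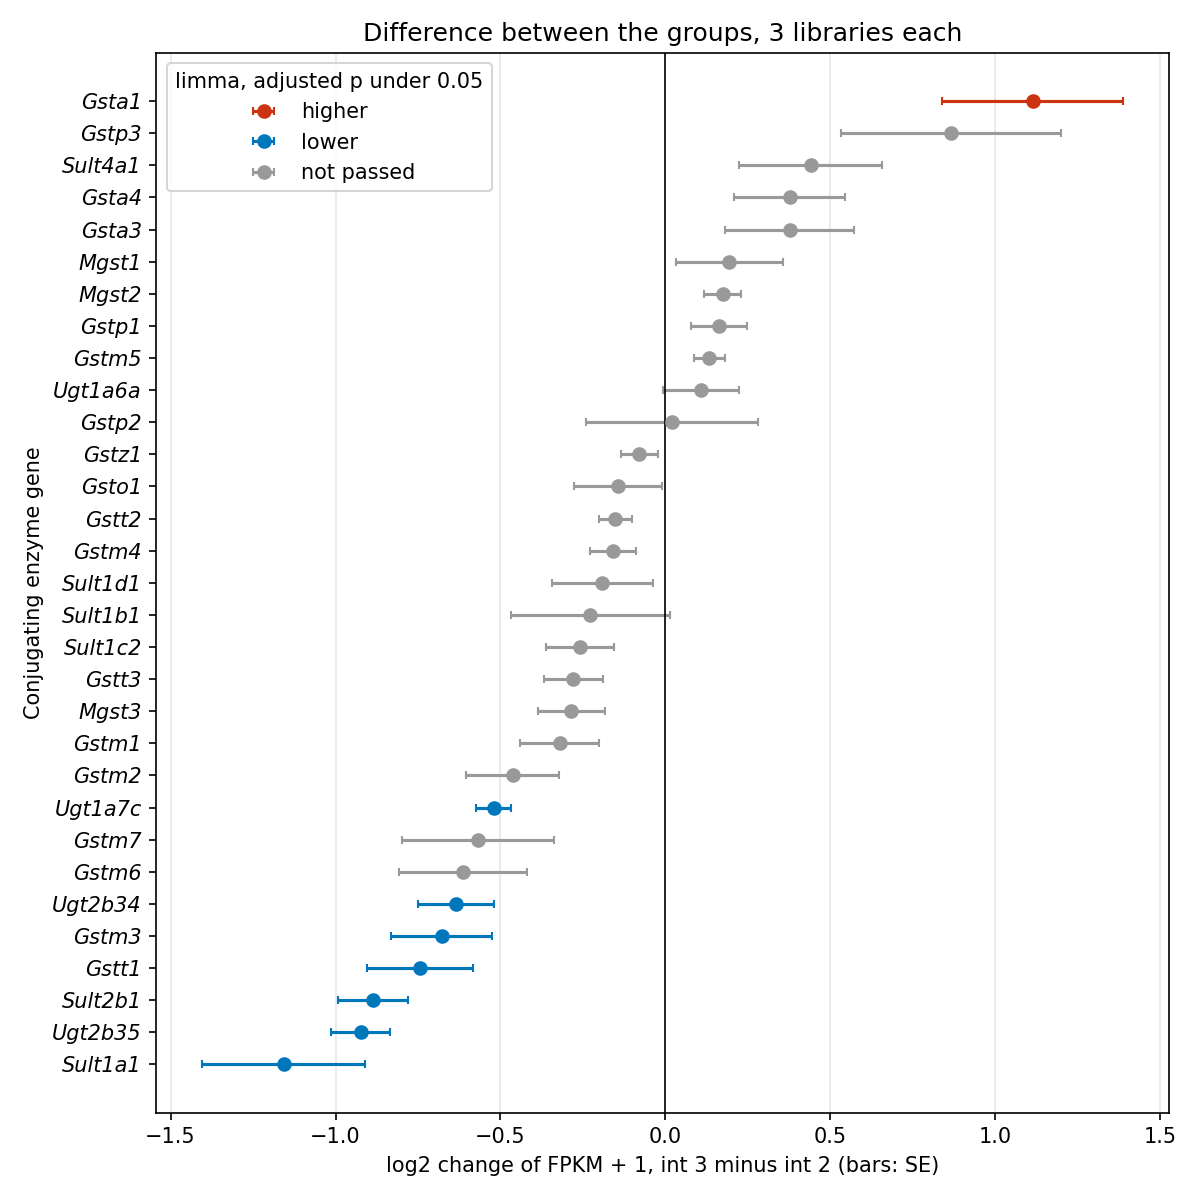
Difference int 3 minus int 2 in log2(FPKM + 1) for the 31 tested conjugating enzyme genes (points) with its SE (bars), in order of size and coloured by the call of limma at an adjusted p under 0.05. Sult1a1 (-1.16), Ugt2b35 (-0.92) and Sult2b1 (-0.89) lie at the low end and Gsta1 (1.11) at the high end, and the 23 grey genes did not pass.

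Of the 37 genes that were not tested 19 were listed at 0 in all 6 libraries. These included 8 of the 9 SULT2 genes and 8 UGT genes, but no GST or MGST gene. The other 18 had some fragments, and 9 of them had at most 20 over all 6 libraries. Apart from Ugt2b5, which is described with the UGT genes, none of the 18 was above 0.737 FPKM in a library. All 31 tested genes but Ugt1a6a reached 1 FPKM in each int 2 library, so for 30 of them the filter did not depend on int 3. Bulk RNA cannot tell fewer cells of a type from less RNA per cell.

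**Figure D2:**
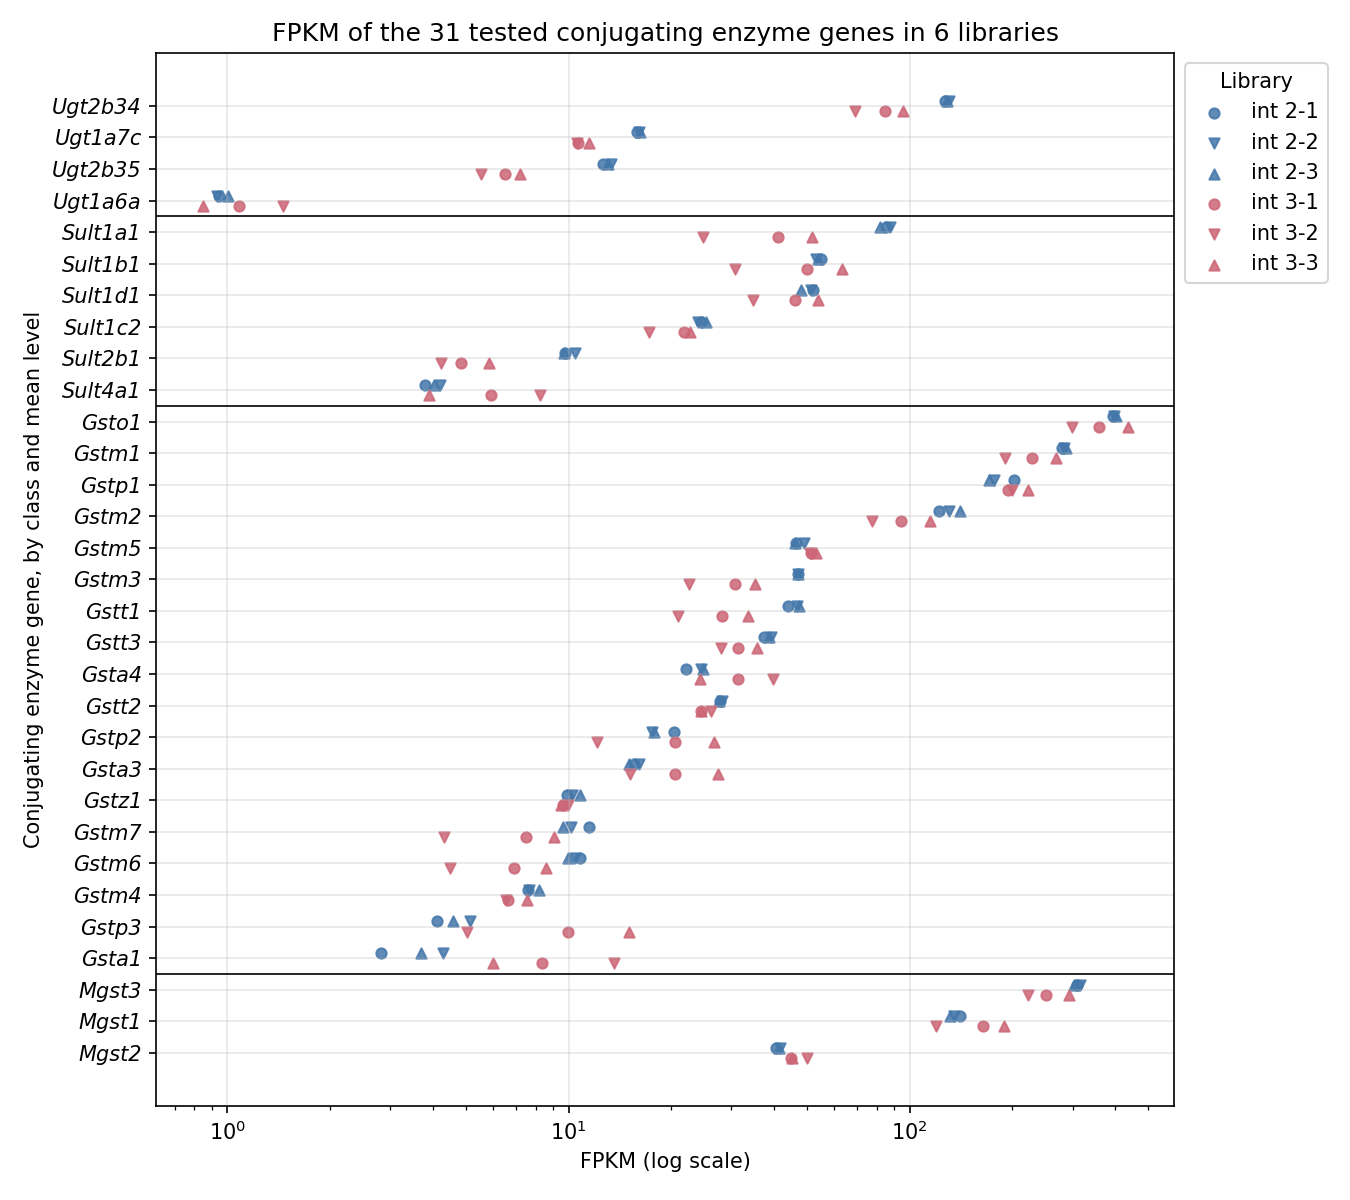
FPKM on a log axis of the 31 tested genes in each library, by class (separated by lines) and in order of mean level within a class. Blue marks are int 2 and red marks int 3, with a circle, a downward and an upward triangle for replicates 1, 2 and 3. The blue marks of a gene nearly coincide, while the red ones spread, most often with int 3-2 at the low end and int 3-3 at the high end.

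The proximal promoters of the genes with the largest changes are shown because several of them changed in the same direction. RefSeq starts (build GRCm38.p6) were at hand for 28 of the 31 tested genes, with 38 starts in all, and the 250 bases before each start were searched on both strands for 2 motifs. These were the core of the antioxidant response element bound by Nrf2 (TGACNNNGC) and the core of the dioxin response element bound by the aryl hydrocarbon receptor (GCGTG). The sequences of Gsta1, the gene that rose, and of Sult1a1, Sult2b1 and Ugt2b35, which fell the most, run 5′ to 3′ up to the base before the start, with any motif match in capitals. Both the antioxidant and the dioxin core were found before Gstm5. That of Gsta1 lies on chr9:78230419-78230668 (plus strand), that of Sult1a1 on chr7:126676419-126676668 (minus strand), that of Sult2b1 on chr7:45742479-45742728 (minus strand) and that of Ugt2b35 on chr5:87000610-87000859 (plus strand).
Gsta1: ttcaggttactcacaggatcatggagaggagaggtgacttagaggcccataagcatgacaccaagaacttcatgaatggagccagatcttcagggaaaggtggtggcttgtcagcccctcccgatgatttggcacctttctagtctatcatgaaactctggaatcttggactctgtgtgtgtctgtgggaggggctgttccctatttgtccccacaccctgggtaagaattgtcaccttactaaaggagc
Sult1a1: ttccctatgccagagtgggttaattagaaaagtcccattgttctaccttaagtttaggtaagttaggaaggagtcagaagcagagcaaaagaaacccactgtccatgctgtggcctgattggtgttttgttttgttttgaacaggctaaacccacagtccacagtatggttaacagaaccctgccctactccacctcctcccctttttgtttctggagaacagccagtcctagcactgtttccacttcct
Sult2b1: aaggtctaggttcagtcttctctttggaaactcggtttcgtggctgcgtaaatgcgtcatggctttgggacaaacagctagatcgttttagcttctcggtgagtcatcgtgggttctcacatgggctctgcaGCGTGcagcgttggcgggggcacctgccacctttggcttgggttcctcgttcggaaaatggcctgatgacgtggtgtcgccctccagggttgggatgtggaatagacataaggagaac
Ugt2b35: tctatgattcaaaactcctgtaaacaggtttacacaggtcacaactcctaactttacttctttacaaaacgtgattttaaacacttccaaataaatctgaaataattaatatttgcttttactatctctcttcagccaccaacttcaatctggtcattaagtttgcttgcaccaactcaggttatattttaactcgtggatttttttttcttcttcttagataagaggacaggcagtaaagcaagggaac
The capitals mark GCGTG in Sult2b1 (bases 118 to 114 before the start). The windows of Gsta1, Sult1a1 and Ugt2b35 held neither motif, nor did that of the other start listed for Sult2b1. Over the 38 starts of tested genes the antioxidant core was found in 10.5% and the dioxin core in 23.7%. Over all 32851 starts of the table the shares were 10.2% and 28.2%. The antioxidant core was found before Gsta3, Gstm5, Gstm7 and Mgst1, none of which passed the test.

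UGT transcripts were lower in every int 3 library. Their FPKM summed to 157, 161 and 159 in int 2-1, int 2-2 and int 2-3 and to 105, 91.9 and 115 in int 3-1, int 3-2 and int 3-3 (159 ± 1.99 and 104 ± 11.8, SD, n = 3 libraries each). Of the 4 tested UGT genes 3 fell and 1 did not pass, beside 6.7% of all tested genes that fell. Ugt2b34, a UGT2B enzyme of the family that glucuronidates steroids, bile acids and drugs, supplied most of this sum. It stood at 127, 130.4 and 128 FPKM in int 2, against 84.7, 69.1 and 95.5 in int 3 (log2 change -0.64, SE 0.11, limma adjusted p = 0.0163). All 3 int 3 values lay below the int 2 values, and int 3-2 was the lowest. The call was lost without int 2-1, int 2-2, int 2-3 or int 3-1, with adjusted p of 0.0709 to 0.0822.

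Ugt2b35, another gene of the same UGT2B cluster, fell from 12.6, 13.3 and 13.1 FPKM in int 2 to 6.49, 5.55 and 7.19 in int 3 (log2 change -0.92, SE 0.09, limma adjusted p = 0.00214). Its call held with each library left out (highest adjusted p = 0.0215). Ugt1a7c, a UGT1A enzyme of the gut that acts on phenols and plant compounds, fell from 15.9, 16.1 and 16.2 FPKM to 10.6, 10.6 and 11.5 (log2 change -0.52, SE 0.05, limma adjusted p = 0.00250). The int 3 libraries lay close together for this gene, and the call held with each library left out (highest adjusted p = 0.0260).

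Genes of the UGT1A locus share their last exons, and 69.3% of the 50-base windows of the longest Ugt1a7c transcript (GENCODE, GRCm38) also occur in a transcript of another gene, mostly Ugt1a6a. How fragments in such windows were counted is not given in the sources used here, so the split of signal among UGT1A genes is uncertain. Ugt1a6a, which glucuronidates simple phenols and serotonin, stood at 0.945, 0.932 and 1.00 FPKM in int 2, against 1.08, 1.45 and 0.847 in int 3 (adjusted p = 0.548 in limma). The ranges overlap. Ugt1a1, the bilirubin enzyme, was below the filter, at 0.325, 0.270 and 0.363 FPKM in int 2 and 0.644, 0.737 and 0.291 in int 3. The summed FPKM of the UGT1A genes was 17.4 ± 0.161 in int 2 and 12.6 ± 0.198 in int 3.

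Ugt2b5 was far above its int 2 level in 2 of the int 3 libraries and had no fragment in the other. It had 5, 10 and 12 fragments in int 2-1, int 2-2 and int 2-3, 98 and 256 in int 3-1 and int 3-2, and 0 in int 3-3. In FPKM these were 0.0770, 0.153 and 0.185 in int 2 and 1.52, 3.97 and 0 in int 3. The int 3 values thus lay on both sides of the int 2 values, and the gene was not tested because only 2 libraries reached 1 FPKM. Ugt8a, which makes the galactosylceramide of myelin rather than a detoxification product, had 5 to 20 fragments in every library.

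SULT transcripts were lower in int 3 as a sum, with a wider spread. They summed to 231, 231 and 223 FPKM in int 2 and to 169.9, 120.2 and 201 in int 3 (228 ± 4.59 and 164 ± 41.0). Of 6 tested SULT genes 2 fell and 4 did not pass, beside 6.7% of all tested genes that fell. Sult1a1, the phenol sulfotransferase, showed the largest fall of all 31 genes in limma. It stood at 85.3, 87.6 and 81.8 FPKM in int 2, against 41.0, 24.8 and 51.8 in int 3 (log2 change -1.16, SE 0.25, adjusted p = 0.0276). No int 3 library came near the int 2 values, but they spread from 24.8 to 51.8. When int 2-1, int 2-2, int 2-3 or int 3-1 was left out, the adjusted p became 0.0907 to 0.114. The call was also lost without the filter on low values (0.0618).

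Sult2b1, which sulfates cholesterol and other hydroxysteroids, fell from 9.77, 10.4 and 9.70 FPKM to 4.84, 4.22 and 5.86 (log2 change -0.89, SE 0.11, limma adjusted p = 0.00437). The groups do not overlap, and the call held with each library left out (highest adjusted p = 0.0341). Sult2b1 was the sole SULT2 gene with any fragments. The other genes of the SULT2 family, mostly known from the liver, were listed at 0 throughout.

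The remaining SULT1 genes did not pass. Sult1b1, which sulfates phenols and thyroid hormone, stood at 55.1, 53.2 and 54.0 FPKM in int 2, against 49.9, 30.8 and 63.5 in int 3 (adjusted p = 0.550 in limma). Its int 3 values lay on both sides of int 2, and without int 3-2 the sign of its difference changed (log2 change 0.06). Sult1d1, which acts on catechols, stood at 52.2, 51.4 and 48.0 FPKM in int 2, against 46.0, 34.7 and 53.7 in int 3 (adjusted p = 0.424). Sult1c2 stood at 24.5, 24 and 25.3 FPKM and at 21.7, 17.2 and 22.6, with every int 3 library below int 2 (adjusted p = 0.147, and 0.0389 without int 3-3). In all 3 of these genes int 3-2 was the lowest library.

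Sult4a1, a sulfotransferase best known from neurons, ran the other way, at 3.80, 4.19 and 4.04 FPKM in int 2 and 5.93, 8.24 and 3.91 in int 3. Its highest value was in int 3-2 (log2 change 0.44, SE 0.22, limma adjusted p = 0.218, and 0.00981 without int 3-3). Summed markers of enteric nerve and glia had the same order of int 3 libraries, as did 6208 of all 12525 tested genes. The 6 markers summed to 53.2, 53.3 and 48.5 FPKM in int 2 and to 68.5, 89.1 and 47.2 in int 3-1, int 3-2 and int 3-3, and 0 of the 6 passed the test. Their part in the Sult4a1 values was not tested.

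**Figure D3:**
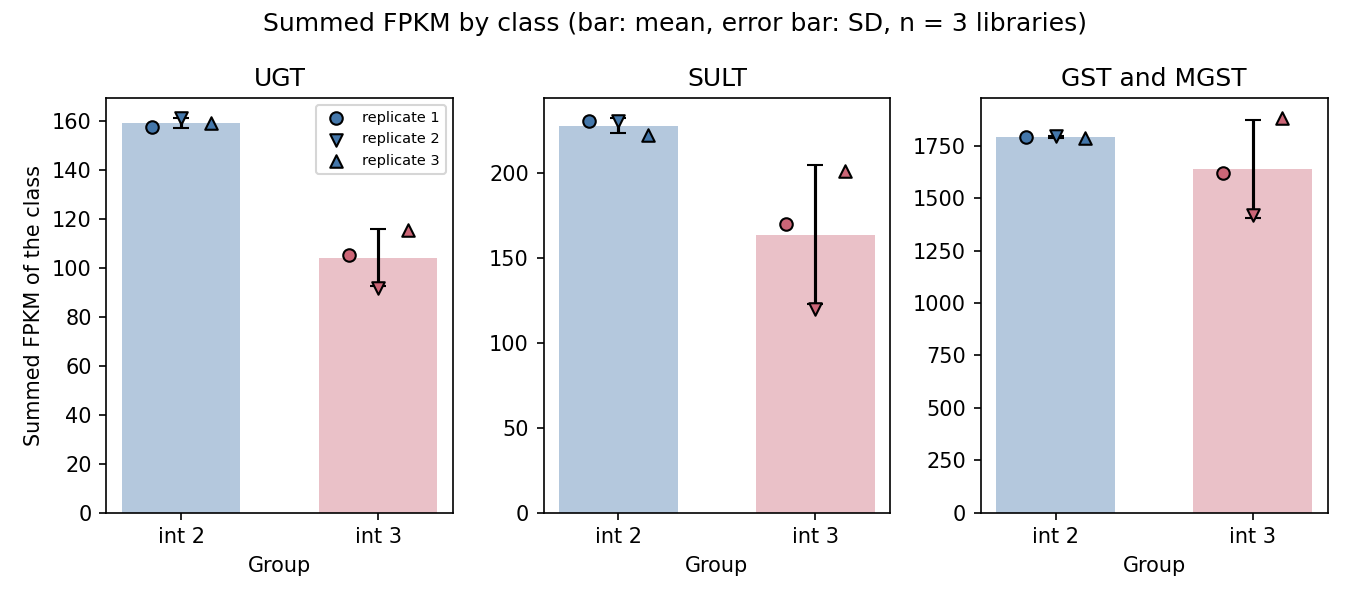
Summed FPKM of the UGT, SULT and GST with MGST genes in int 2 (blue) and int 3 (red). Bars are means, error bars SD over 3 libraries, and marks the libraries. The UGT sums of int 3 (91.9 to 115) lie below all int 2 sums (157 to 161), and so do the SULT sums, while the GST and MGST sum of int 3-3 (1885) is above those of int 2 (1788 to 1795).

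GST and MGST genes were the most abundant of the conjugating enzymes, and most of them did not pass the test. Of 21 tested genes 2 fell, 1 rose and 18 did not pass, a share near the 15.3% called among all tested genes. They summed to 1795, 1795 and 1788 FPKM in int 2 and to 1621, 1418 and 1885 in int 3, so that the groups overlap. The mu class, which conjugates aromatic electrophiles and epoxides, had a median log2 change of -0.46. All 7 mu genes were tested. Of these, 6 had every int 3 library below int 2, beside 17.9% of all tested genes, but only Gstm3 fell. Gstm3 stood at 46.9, 47.1 and 46.9 FPKM in int 2, against 30.7, 22.5 and 35.2 in int 3 (log2 change -0.68, SE 0.15, limma adjusted p = 0.0322). When int 2-1, int 2-2, int 2-3 or int 3-1 was left out, the adjusted p became 0.101 to 0.122. The call was also lost without the filter (0.0677).

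Gstm1, the most abundant mu gene, stood at 279, 283 and 288 FPKM in int 2, against 228, 191 and 268 in int 3 (log2 change -0.32, SE 0.12, limma adjusted p = 0.126). Gstm2 stood at 122, 130.1 and 140.1 FPKM and at 94.5, 77.7 and 114 (log2 change -0.46, adjusted p = 0.0763). In both genes the int 3 values lay below int 2, with int 3-3 near them. Gstm6 (10.8, 10.5 and 9.98 FPKM in int 2, 6.90, 4.48 and 8.56 in int 3) and Gstm7 (11.5, 10.2 and 9.62, then 7.51, 4.31 and 9.05) had adjusted p of 0.0856 and 0.151. Gstm4 had a log2 change of -0.16. Gstm1, Gstm2, Gstm4, Gstm6 and Gstm7 all passed without int 3-3 (adjusted p = 0.00895, 0.00670, 0.0327, 0.0102 and 0.0261), and Gstm6 also without int 3-2 (0.0282). Among all tested genes 14.3% fell without int 3-3.

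Gstm5 was the exception among the mu genes. It stood at 46.4, 48.9 and 46.2 FPKM in int 2, against 51.4, 51.2 and 53.0 in int 3, all above int 2 (log2 change 0.13, SE 0.05, limma adjusted p = 0.108). Some mu genes share sequence with other genes, which need not be mu genes. Of their 50-base windows 28.8% for Gstm3, 23.1% for Gstm1, 11.5% for Gstm6 and 9.36% for Gstm2 occur in another gene. None do for Gstm4, Gstm5 and Gstm7. The largest share was with Gm8834 for Gstm3 (16.0%) and with the pseudogene Gstm2-ps1 for Gstm1 (17.3%).

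In the theta class, which acts on small halogenated compounds and organic hydroperoxides, Gstt1 fell from 43.9, 46.7 and 47.2 FPKM in int 2 to 28.1, 20.9 and 33.6 in int 3 (log2 change -0.74, SE 0.16, limma adjusted p = 0.0289). Its groups were well apart, although leaving out any int 2 library or int 3-1 raised its adjusted p to between 0.10 and 0.117, and leaving out the filter to 0.0624. Gstt3 stood at 37.4, 39.3 and 38.6 FPKM and at 31.3, 27.9 and 35.6 (log2 change -0.28, adjusted p = 0.0866, and 0.00736 without int 3-3). Gstt2 stood at 27.9, 28.2 and 27.7 FPKM and at 24.5, 26.2 and 24.4 (log2 change -0.15, adjusted p = 0.0898, and 0.0295 without int 3-2). All 3 tested theta genes thus had int 3 below int 2 in every library, beside 17.9% of all tested genes, and 1 of them passed.

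The alpha class detoxifies products of lipid peroxidation. Of its 3 tested genes 1 rose and 2 did not pass, beside 8.64% of all tested genes that rose. Gsta1 was the sole conjugating enzyme gene that rose. It stood at 2.81, 4.28 and 3.71 FPKM in int 2, against 8.37, 13.6 and 6.0 in int 3 (log2 change 1.11, SE 0.27, limma adjusted p = 0.0430). The groups do not overlap, and int 3-2 was the highest. The call was lost without int 2-1, int 2-2, int 2-3 or int 3-1 (adjusted p = 0.110 to 0.157), with voom on whole fragments (0.0642), without a filter (0.0883) and relative to epithelial markers (0.0983). Its sequence is hardly its own, since 89.7% of its 50-base windows occur in another gene and 82.9% in Gm3776 alone. Gm3776 stood at 0.801, 1.83 and 4.59 FPKM in int 2 and 0.570, 3.23 and 4.50 in int 3, and the sum of the pair was 3.61, 6.11 and 8.29 against 8.94, 16.8 and 10.5. The level of Gsta1 is uncertain where fragments were split between these copies.

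Gsta3 and Gsta4 did not pass. Gsta4, which conjugates hydroxynonenal, stood at 22.0, 24.5 and 24.8 FPKM in int 2, against 31.3, 39.6 and 24.2 in int 3, highest in int 3-2 (log2 change 0.38, limma adjusted p = 0.182, and 0.0113 without int 3-3). Gsta3 had the opposite order, at 15.5, 16.0 and 15 FPKM and then 20.5, 15.1 and 27.4 (log2 change 0.38, adjusted p = 0.234, and 0.0162 without int 3-2). The equal log2 changes of these genes thus came from different libraries.

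Of the pi class, which has a broad range of electrophile substrates, 0 of 3 genes passed. Gstp1 stood at 202, 177 and 171 FPKM in int 2, against 194, 199 and 221 in int 3 (log2 change 0.16, limma adjusted p = 0.237). Gstp3 stood at 4.13, 5.14 and 4.57 FPKM and at 9.95, 5.05 and 15, so that int 3-2 was within int 2 and the other int 3 libraries above it (log2 change 0.87, SE 0.33, adjusted p = 0.135). It passed without int 3-2 (adjusted p = 0.00402). Gstp2 stood at 20.4, 17.6 and 17.7 FPKM and at 20.5, 12.1 and 26.6, with a log2 change of 0.02 whose sign turned under median-of-ratios and quantile scaling (-0.02 and -0.05). Gstp1 and Gstp2 share 62.3% and 72.6% of their windows with another gene, mostly with each other.

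Gsto1, an omega class enzyme with thiol transferase activity, was the most abundant of all 31 genes. It stood at 395, 397 and 401 FPKM in int 2, against 358, 298 and 437 in int 3, on both sides of int 2. Its log2 change was -0.14 (limma adjusted p = 0.494, with 0.0356 without int 3-3 and 0.958 without int 3-2). Gstz1, the zeta enzyme of tyrosine breakdown, stood at 9.88, 10.2 and 10.8 FPKM and at 9.65, 9.96 and 9.50 (log2 change -0.08, adjusted p = 0.369). It was among the genes that varied least between the int 3 libraries.

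The 3 microsomal enzymes are membrane proteins unrelated in sequence to the cytosolic GST. Mgst3 stood at 309, 315 and 304 FPKM in int 2, against 250.2, 222 and 293 in int 3, all below int 2 (log2 change -0.28, limma adjusted p = 0.113, and 0.00624 without int 3-3). Mgst1, which protects membranes from lipid peroxides, stood at 140.3, 135 and 131 FPKM and at 164, 119.6 and 189 (log2 change 0.19, adjusted p = 0.447, and 0.0130 without int 3-2). Mgst2, which can conjugate leukotriene A with glutathione, stood at 40.4, 41.6 and 41.4 FPKM and at 44.9, 49.8 and 45.1, all above int 2 (log2 change 0.17, adjusted p = 0.0898, and 0.0407 without int 3-3). None of the 3 passed with all libraries.

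The int 3 libraries followed a common order across the conjugating enzymes. In 23 of the 31 genes int 3-2 was lowest, int 3-1 in the middle and int 3-3 highest, beside 23.9% of all tested genes. Another 6 genes had the reverse order, namely Ugt1a6a, Sult4a1, Gsta1, Gsta4, Gstt2 and Gstz1. Over all 12525 tested genes this reverse order was the more frequent, with 6208 genes against 2996. Thus int 3-1 lay in the middle for 29 of 31 genes (73.5% of all tested genes). The median difference from the int 2 mean over the 31 genes was -0.17, -0.47 and -0.08 in int 3-1, int 3-2 and int 3-3, beside 0.04, 0.09 and -0.03 over all tested genes. Within int 3, all 7 genes that fell were lowest in int 3-2 and highest in int 3-3. All 7 were below the int 2 mean in each int 3 library, which their choice by the test already makes likely. The median SD on the log2 scale was 0.05 in int 2 and 0.27 in int 3 for the 31 genes, and 0.05 and 0.14 for all tested genes.

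**Figure D4:**
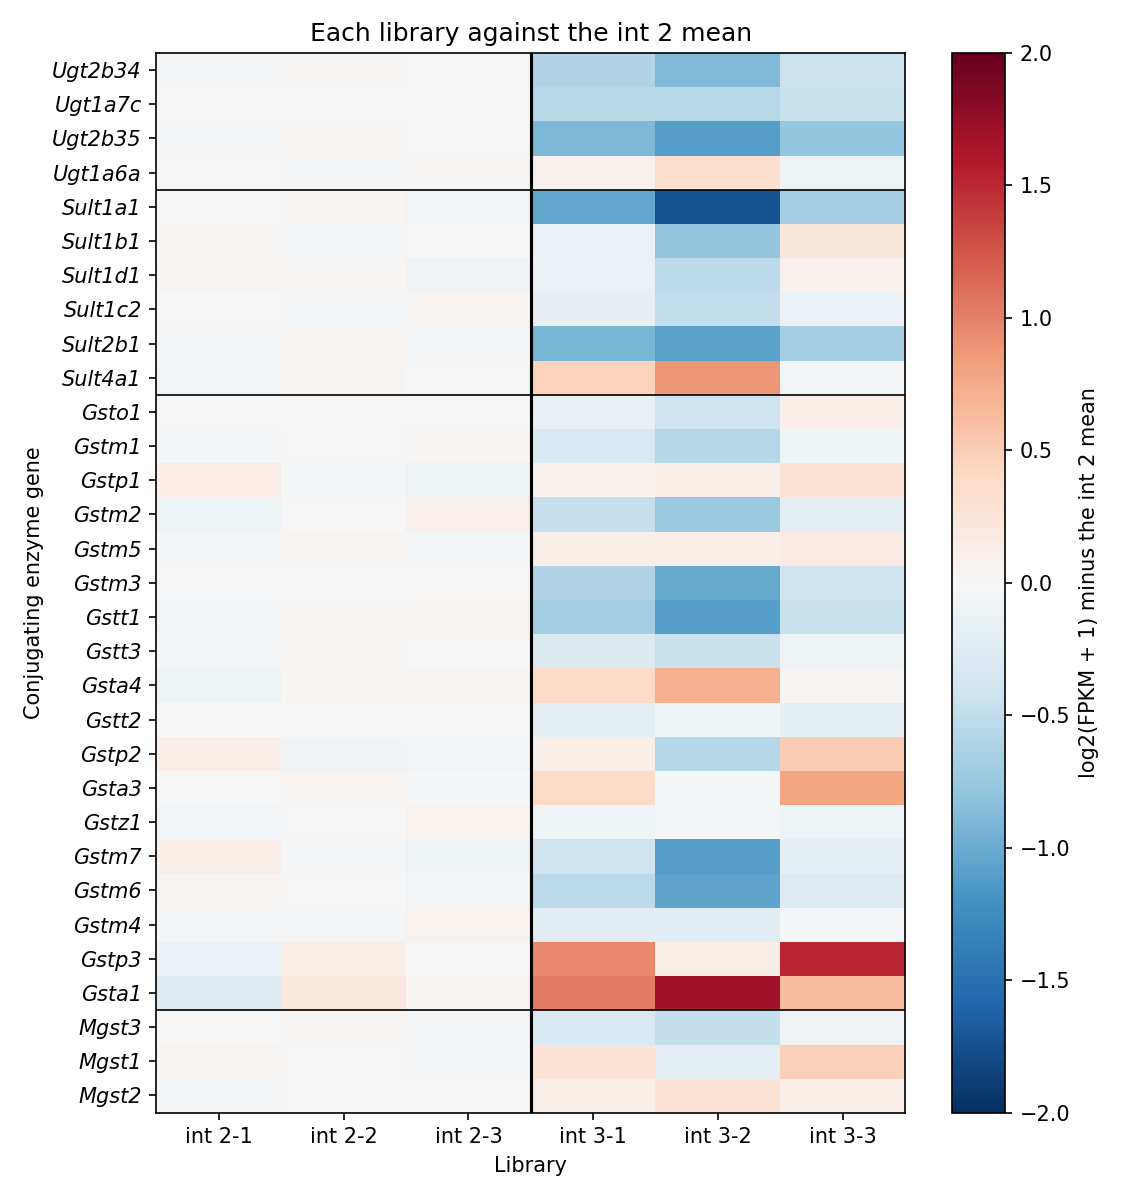
Heat map of log2(FPKM + 1) minus the int 2 mean for the 31 tested genes (rows, by class and level) in the 6 libraries (columns). Blue is lower and red higher than the int 2 mean. The int 2 columns are nearly white, and the blue of the 7 genes that fell is deepest in int 3-2 and palest in int 3-3.

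Several cell markers moved in the same libraries. Their counts with all libraries stand beside 8.64% of all tested genes that rose and 6.7% that fell. The 12 markers of epithelium summed to 8658, 8677 and 8673 FPKM in int 2 and to 8859.5, 7373 and 10279 in int 3-1, int 3-2 and int 3-3, with 1 risen (Elf3) and 0 fallen. Relative to the geometric mean of these 12 markers, a scaling chosen after the data were seen, 12 conjugating enzyme genes fell and 0 rose, beside 5.66% and 3.49% of all tested genes. Of 12 markers of absorptive colonocytes, the surface cells of the colon, 4 fell and 0 rose, with a median log2 change of -0.44, and 7 of the 12 changes were below 0. Their summed FPKM was 2730.3, 2726 and 2702 in int 2 and 2717, 2171 and 3279 in int 3-1, int 3-2 and int 3-3, so that the int 3 sums lay on both sides of int 2. Among the 4 that fell, Slc26a3, the chloride and bicarbonate exchanger, stood at 74.2, 75.2 and 74.9 FPKM in int 2 and 36.4, 23.7 and 46.2 in int 3. Sult1a1 had the same order of int 3 libraries, as did 23.9% of all tested genes. Markers whose change was not below 0 are not named here. The water channel gene Aqp8 stood at 172, 174 and 169 FPKM and at 90.4, 67.3 and 108. Both fell (limma adjusted p = 0.0225 and 0.0127). Of 10 goblet cell markers 0 passed, and they summed to 3655 to 3697 FPKM in int 2 and 6535 to 6782 in int 3. The 6 Hox genes of the distal large intestine summed to 309 to 313 FPKM in int 2 and to 175, 27.1 and 312 in int 3-1, int 3-2 and int 3-3, and 0 of 4 tested passed. The part of cell makeup and of the position sampled along the intestine in the values of the conjugating enzymes was not tested.

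Other cell types were checked in the same way, again beside 8.64% of all tested genes that rose and 6.7% that fell. Of 8 smooth muscle markers 2 fell and 0 rose, of 8 fibroblast markers 4 rose and 0 fell, of 8 leukocyte markers 2 rose and 4 fell, of 6 endothelial markers 1 rose and 0 fell, and of 10 markers of stem and dividing crypt cells 4 fell and 0 rose. Of 3 tested adipocyte markers 1 fell. The 8 markers of squamous epithelium summed to 1.30 to 1.93 FPKM in every library, and all were below the filter. Of 7 hepatocyte markers, included because many of these enzymes are best known from liver, 4 were tested, 2 fell and 0 rose (median log2 change -0.05). Those that fell were Ttr, at 48.5 to 51.8 FPKM in int 2 and 7.29 to 16.6 in int 3, and Alb, at 1.34 to 1.77 and 0.228 to 0.313. The other tested ones, Tat and Cyp2e1, had log2 changes of 0.89 and 0.94.

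Among the genes for the supply of the sugar donor, the transcript for the last step fell. Ugdh, the dehydrogenase that makes UDP-glucuronate, stood at 104, 106 and 107 FPKM in int 2, against 76.5, 78.9 and 77.8 in int 3 (log2 change -0.44, SE 0.04, limma adjusted p = 0.00203). The int 3 libraries were nearly equal. Transcripts for earlier steps of the route rose, namely Pgm1 from 17.2 ± 0.211 to 22.6 ± 0.0618 FPKM and Ugp2 from 56.7 ± 0.718 to 65.9 ± 3.33. Gusb, the lysosomal glucuronidase that removes the sugar, also rose, from 5.10 ± 0.170 to 6.79 ± 0.559. The counts of this and the following lists stand beside 8.64% of all tested genes that rose and 6.7% that fell. In all, 3 of the 13 tested genes of this list rose, 1 fell and 9 did not pass (median log2 change 0.18).

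For sulfate the picture was mixed. Papss1, a synthase of the donor PAPS, fell from 55.3 ± 1.52 to 42.2 ± 3.08 FPKM (log2 change -0.38, limma adjusted p = 0.0130). Its paralog Papss2 stood at 50.8, 50.1 and 50.9 FPKM in int 2, against 57.5, 58.4 and 55.1 in int 3 (log2 change 0.17, adjusted p = 0.0521). Tst, a mitochondrial thiosulfate sulfurtransferase, fell from 143 ± 1.70 to 103 ± 6.86 FPKM, and Sqor, which oxidizes hydrogen sulfide, rose from 127 ± 2.17 to 169.8 ± 17.1. Of 16 tested genes of the list 1 rose, 2 fell and 13 did not pass (median 0.06), again near 15.3%.

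Of 23 tested genes of glutathione synthesis and recycling 4 rose, 2 fell and 17 did not pass (median 0.05). The shares of all tested genes were 8.64% risen and 6.7% fallen. Gpx2, the glutathione peroxidase of gut epithelium, rose from 457 ± 14.6 to 816 ± 9.21 FPKM (log2 change 0.83, limma adjusted p = 0.000554). Gpx3, the secreted peroxidase, rose from 41.4 ± 0.972 to 95.6 ± 9.19, and Gsr, glutathione reductase, from 52.9 ± 1.16 to 63.3 ± 3.51. The membrane peptidases Dpep1 and Anpep, which act late in the breakdown of glutathione conjugates, fell by 1.25 and 0.52 on the log2 scale. Gclc, the rate-limiting enzyme of glutathione synthesis, stood at 14.1, 15 and 13.6 FPKM in int 2, against 16.7, 18.6 and 15.9 in int 3 (adjusted p = 0.0730).

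Nrf2 is the transcription factor that induces many GST genes under oxidative or electrophilic stress. Of 30 tested genes of its pathway and targets 10 rose, 2 fell and 18 did not pass (median 0.20). Among all tested genes 8.64% rose and 6.7% fell. Nfe2l2, which encodes Nrf2, stood at 44.8, 45.7 and 46.5 FPKM in int 2 and 44.9, 47.3 and 39.6 in int 3 (limma adjusted p = 0.610), and Nqo1, a quinone reductase and common marker of Nrf2 activity, at 11.7, 10.8 and 11.3 and then 12.3, 12.6 and 10.9 (adjusted p = 0.513). Those that rose included Hmox1, heme oxygenase (log2 change 1.21), Pgd, an enzyme of NADPH supply (0.72), Srxn1, sulfiredoxin (0.52), and Maff, a small Maf factor (0.42). Ephx1, microsomal epoxide hydrolase, and Cat, catalase, fell by 0.52 and 0.21 on the log2 scale.

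Among 24 tested regulators of conjugating enzymes 2 rose, 2 fell and 20 did not pass (median 0.04), a share called near the 15.3% of all tested genes. Nr1h4, the bile acid receptor FXR, rose from 13.9 ± 0.371 to 24.4 ± 1.37 FPKM, and Cebpb, a factor of the acute phase response, from 22.1 ± 1.12 to 48.9 ± 7.93. Vdr, the vitamin D receptor, fell from 53.9 ± 0.239 to 39.1 ± 6.61 FPKM. Ahr, the aryl hydrocarbon receptor, stood at 4.20, 4.59 and 4.88 FPKM in int 2 and 5.17, 5.77 and 4.29 in int 3 (limma adjusted p = 0.454). Hnf4a, a nuclear receptor of enterocytes, stood at 111, 108 and 111 FPKM and at 98.3, 93.9 and 105, all below int 2 (adjusted p = 0.117).

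The carriers of conjugates and drugs were a list of ABC exporters and organic anion carriers of the SLCO family. Of 10 tested, 2 rose, 2 fell and 6 did not pass (median 0.12), beside 8.64% risen and 6.7% fallen among all tested genes. Abcb1a, the P-glycoprotein drug pump, fell from 33.6 ± 0.731 to 14.9 ± 2.38 FPKM (log2 change -1.13, limma adjusted p = 0.00222), with int 3-2 the lowest library. Slco2b1, an uptake carrier of steroid sulfates, fell from 5.54 ± 0.0688 to 3.56 ± 0.569. Slco2a1, a prostaglandin carrier, rose from 8.45 ± 0.140 to 13.5 ± 0.359 and Abcc4, an exporter of organic anions, from 2.19 ± 0.165 to 3.02 ± 0.166 FPKM.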

How the data were processed

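RNA of large intestine samples was measured in 6 libraries, grouped by the number in their titles (int 2 or int 3, 3 libraries each). The authors deposited a table of FPKM per gene. The submitters' processing notes name GRCm39 as genome build. The aligner, counter, annotation and strand setting are not given in the sources used here. FPKM values were whole multiples of 1 fragment (relative tolerance 1e-06) for 99.9% of the 12525 tested genes and for all 68 conjugating enzyme genes, which gave the fragments and the library totals of 34021820 to 35060599 fragments. The totals rest on taking gene lengths as whole numbers of bases. Of the 1264 short genes used for this, 97.2% came within 0.05 bases of a whole length.

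Groups were compared as int 3 minus int 2 on log2(FPKM + 1) with limma 3.58.1 (R 4.3.3; lmFit and eBayes with trend), for genes that reached 1 FPKM in 3 or more libraries, with Benjamini-Hochberg adjustment over all of them and a threshold of 0.05. The pseudocount of 1 understates the change of low genes. The fit was tested on simulated data. There, 5.26% of calls were false when both groups had the same spread. When each group kept its own spread, wider in int 3 as in these data, 19.3% of calls were false. These shares belong to that run alone, and the share of false calls in the data themselves was not tested. The other settings tried were 17 alternatives and 1 more, a scaling to 12 epithelial markers that was chosen after seeing the data. Sequence shared between genes was counted as 50-base windows of the longest GENCODE transcript (GRCm38), and promoter sequences were from RefSeq (GRCm38.p6). No coordinate was carried between builds. Python 3.11.15, numpy 2.4.6, pandas 2.3.3 and matplotlib 3.10.9 were used.

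Values in every library are given for conjugating enzyme genes past the threshold, at a mean of 10 FPKM or more, or with int 3 libraries over 4-fold apart on FPKM + 1, and others are described by counts and ranges or named where a class is described. From each pathway or cell type list up to 4 genes of smallest p per direction could be named, and Nfe2l2, Ahr, Hnf4a, Epcam, Hoxb13, Nqo1, Gclc, Ugdh and Papss2 were named whatever their values. The genes and lists were chosen with earlier results of these data known. Some planned items, among them 2 promoter motifs, are not reported here.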

Additional observations from a re-analysis of the deposited data

How the results depend on the processing

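The count of conjugating enzyme genes that fell (7) became 4 without a filter on low values (49 genes then tested), 0 in a test against a 1.5-fold change, and 12 relative to the 12 epithelial markers, and leaving out 1 library at a time gave 3 to 16. The count that rose (1) became 0 without the filter, with voom on whole fragments, in the 1.5-fold test and relative to the epithelial markers, and 2 on TPM, and leaving out 1 library gave 0 to 4. With the replicate number as a block 4 genes fell, and Sult1a1, Gstm3 and Gstt1 lost their calls (adjusted p = 0.0593, 0.0614 and 0.0561 in limma). The deviations of same-numbered libraries from their group means correlated at -0.0147, 0.00407 and -0.0215, and those of differently numbered ones at -0.0316 to 0.0445. The int 2 libraries differed little from each other, so these values cannot tell whether the numbers pair the libraries. TPM moved the median log2 change of all tested genes to 0.10. Over all tested genes 1082 rose and 839 fell, against 1274 and 609 on TPM, 1030 and 1147 after quantile normalization, 516 and 373 with the block, 72 and 40 in the 1.5-fold test, and 3124 and 1789 without int 3-3. The median over the tested conjugating enzyme genes stayed below 0 in every setting run, from -0.33 without int 3-3 to -0.013 without the filter (over 49 genes). Of single genes only Gstp2 and Sult1b1 changed sign. Gstp2 was at -0.018 with median-of-ratios scaling, -0.053 after quantile normalization, -0.0024 relative to the epithelial markers and from -0.22 to 0.32 with 1 library left out, below 0 in 4 of those 6 fits. Sult1b1 ranged from -0.45 to 0.056 with 1 library left out and was above 0 only without int 3-2. Sult2b1, Ugt1a7c and Ugt2b35 kept their call in 17 of 18 alternatives, all but the 1.5-fold test. The cause of these changes was not tested. Counting error limits genes with few fragments, such as the 9 untested genes with at most 20 over the 6 libraries.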
